A study of Zea mays with 56 samples.

Results

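Of the 56 MuSeq2 libraries of the series, 8 form 4 technical pairs, in each of which 1 sheared DNA preparation was divided and carried through library construction separately. They are leaf 74, leaf 75, Mu-inactive leaf 3 and pollen 79, and were identified from the library names, in which the second library of a pair carries the letter T. Within each pair, the sites of the first library were sorted by their count (1, 2 to 4, 5 to 9, 10 to 99, and 100 or more) and looked up in the second. First libraries of other plants of the same tissue and genotype gave the level at which a site is met without sharing DNA: 5 libraries for each Mu-active leaf pair, 2 for the Mu-inactive pair and 13 for pollen.

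Mu elements are DNA transposons of maize that move by cutting and pasting and leave a short duplication of the target on both sides. A site inherited through the germ line is present in every cell, whereas an insertion made late in a tissue is carried by few cells and contributes few molecules to a DNA preparation. A junction between Mu and the genome can be read from the left or the right border of the element, and each border is amplified as a junction of its own.

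Leaves 74 and 75 and pollen 79 came from W22 MuActive plants, offspring of a Mu-active father and a Mu-inactive mother that were both of the W22 inbred. Leaf 3 came from a W22 Mu-Inactive plant, of the line that supplied those mothers. Mu-active leaves were seedling leaves at the V2 stage of plants started in vermiculite and later moved to soil, Mu-inactive leaves were taken at the same stage from plants grown in soil, and pollen was shed at maturity. Leaf DNA was prepared with a Qiagen kit and pollen DNA by a CTAB method, so tissue and extraction differ together. Each pair is 1 plant and 1 DNA preparation, and the Mu-inactive and the pollen conditions have 1 pair each. The endosperm of plant 74 is labelled as carrying B73 MuKiller, although its leaf is labelled W22 MuActive.

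The title of the second leaf 75 library names plant 76, while its description and library name give plant 75. Sites at a relative abundance of at least 0.1 and absent from Mu-inactive leaf were used to check the plant of each library, where relative abundance is a count divided by the reference level (the median count over 28 sites read in all 50 undiluted libraries). The library in question had 33 such sites. All 33 were also at that abundance in the first leaf 75 library and in each other tissue of plant 75, whereas the highest number in a library of plant 76 was 9. It was therefore analysed with plant 75. In leaf 74, 41 of 41 sites were shared with the partner, against at most 23 in a library of another plant, and in pollen 79 it was 51 of 56, against at most 18. For Mu-inactive leaf 3 all sites of that abundance were taken, and all 30 were also at this abundance in the partner and in a library of a Mu-active plant, so these sites could not check its label. Of the comparison libraries, pollen 99 has a title that names plant 85. It had 40 such sites, of which 35 were at that abundance in the endosperm of plant 99 and 19 and 13 in the endosperm and pollen of plant 85, so it was kept as plant 99. The pollen of plants 42 and 52 is labelled with another family number than pollen 79, and that of plant 69 carries different family numbers in its title and description.

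Depth was nearly equal within the leaf pairs and differed widely between pairs. Total counts were 809879 and 759898 in leaf 74, 1432745 and 1418990 in leaf 75, 1646591 and 1769822 in Mu-inactive leaf 3, and 10152 and 7119 in pollen 79. The reference levels were 9221 and 8622, 21330 and 20041, 50221 and 50816, and 95.5 and 69. A floor of 3 counts was thus a relative abundance of 0.000325 in the first leaf 74 library and 0.0314 in the first pollen library, so a single count in pollen stands for a far more abundant site than a single count in leaf.

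Most sites of a Mu-active leaf library were not read again from the same DNA, yet the sites that were read again held most of the counts. Leaf 74 had 106937 and 104274 sites, of which 26815 were common to both libraries, which is 25.1% of the first and 25.7% of the second. Leaf 75 had 146834 and 147037 sites with 44035 in common (30.0% and 29.9%). Common sites held 88.6% of the counts of the first library in leaf 74 and 91.3% in leaf 75. Single-count sites made up 78.7% of the sites in the first leaf 74 library but 10.4% of its counts, and 73.7% of the sites and 7.55% of the counts in leaf 75.

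In the Mu-inactive leaf a small set of sites held nearly all counts, and most other sites were read in 1 library alone. Its libraries had 731 and 1043 sites and shared 65, which is 8.89% of the first and 6.23% of the second, and those 65 held 99.95% of the first library's counts. Of the 65 common sites, 54 were also read in another Mu-inactive plant and 63 in a Mu-active library. Of the 666 sites read in the first library alone, 89.8% were read in no other plant, and of the 978 in the second alone 91.3%. The highest count among these one-library sites was 7 in the first and 4 in the second, and both borders were seen at 0 and 2 of them.

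Pollen 79 had 2443 and 1880 sites with 314 in common (12.9% and 16.7%), and its common sites held 76.8% of the first library's counts. Single-count sites were 85.6% of its sites and 20.6% of its counts.

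**Figure D1:**
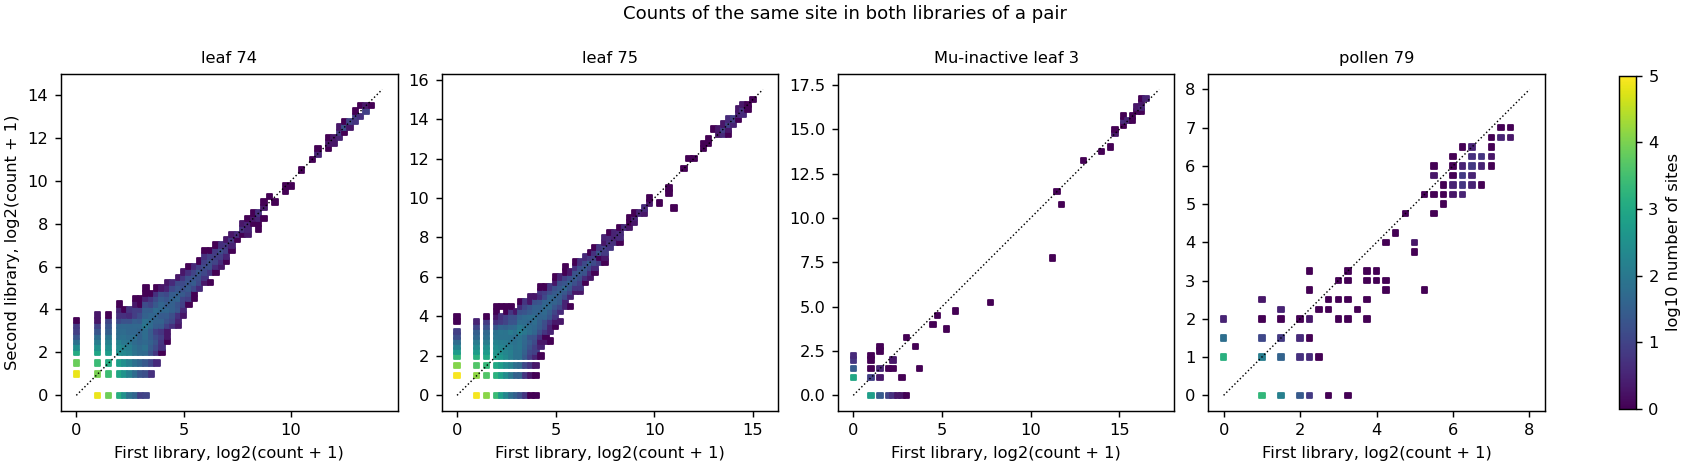
Counts of each site in the first library (x axis) and second library (y axis) of the 4 pairs, as log2(count + 1), coloured by the log10 number of sites per cell of the grid; the dotted line marks equal counts. Sites off the axes follow the diagonal, while sites read in 1 library alone lie along the axes at low counts, with none above 14 counts.

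The share of sites found again rose steeply with their count. In leaf 74, 16.3% of 84204 single-count sites were found in the second library (95% exact binomial interval 16.0 to 16.5), 48.1% of 18282 sites of 2 to 4 counts, 94.7% of 2440 sites of 5 to 9 counts, and all 1817 sites of 10 to 99 counts. Leaf 75 gave 20.2% of 108151 single-count sites (19.97 to 20.45), 48.6% of 31469, 92.8% of 4250 and 99.7% of 2686 sites, so 8 sites of 10 to 99 counts were missed. Pollen 79 gave 6.64% of 2092 single-count sites (5.61 to 7.80), 28.1% of 242, 84.6% of 13 (54.6 to 98.1) and all 77. Every site of 100 or more counts was found in each pair. There were 194 of them in leaf 74, 278 in leaf 75, 34 in Mu-inactive leaf 3 and 19 in pollen 79. A count of 0 misses, taken as 3 over the number of sites, allows a loss of up to 1.55%, 1.08%, 8.82% and 15.8%.

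Low-count sites of the Mu-inactive leaf seldom came back. The second library held 12 of 632 single-count sites (1.90%, interval 0.985 to 3.29), 11 of 52 sites of 2 to 4 counts (21.2%) and 2 of 7 sites of 5 to 9 counts (28.6%), but all 6 sites of 10 to 99 counts. With the second library selecting, 12 of 953 single-count sites (1.26%), 11 of 48 sites of 2 to 4 counts (22.9%) and 4 of 4 sites of 5 to 9 counts were found in the first, so the shares above 4 counts rest on too few sites to set a level. Its 2 libraries were deeper than those of the other pairs. Over the 3 Mu-active pairs the mean share of single-count sites was 14.4%, and over all 4 pairs it was 11.3%.

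Summed over all sites of a class, found again or not, the second library held fewer counts than the first at low counts and about as many at 100 or more. The ratio of these sums, second over first and divided by the ratio of reference levels, was 0.25 at single-count sites, 0.49 at 2 to 4, 0.84 at 5 to 9, 0.98 at 10 to 99 and 0.99 at 100 or more in leaf 74. In leaf 75 the values were 0.33, 0.50, 0.82, 1.00 and 1.05. Pollen 79 gave 0.11, 0.27, 0.78, 0.99 and 0.92, and Mu-inactive leaf 3 gave 0.028, 0.22, 0.21, 0.48 and 1.06. Classes were formed on the first library's count, which by itself makes the ratio fall at low counts, and with the second library as the selecting one the single-count ratio was 0.23 in leaf 74 and 0.29 in leaf 75. In Mu-inactive leaf 3 the ratio then was 0.85 at 5 to 9 counts (4 sites) and 3.45 at 10 to 99 (5 sites).

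Low-count sites were also met in other plants of the same tissue. Single-count sites of leaf 74 were found in other plants' leaf libraries at 6.35% to 15.4%, and those of leaf 75 at 5.37% to 13.8%, below the technical partner in all 5 comparisons of each pair. In pollen 79 the range was 1.29% to 15.0%, with 8 of 13 libraries above the partner and a mean of 7.78%. Without plants 42 and 52 it was 6 of 11, with a mean of 6.61%, and without plant 99 it was 7 of 12. In the Mu-inactive leaf both other plants, at 2.22% and 4.43%, were above the partner's 1.90%. The comparison pollen libraries were deeper, with reference levels of 293 to 7022 against 69 in the partner.

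With the searched libraries thinned to 1 reference level, the partner held more single-count sites than each other plant in the 3 Mu-active pairs. The first library, which sets the classes, was not thinned. At the lowest reference level of each comparison, the partner held 6.64% of single-count pollen sites and the 13 other plants 0.173% to 1.26%. Thinned to a reference level of 8618, the partner held 16.3% in leaf 74 against 6.14% to 9.96%, and 10.7% in leaf 75 against 5.37% to 8.68%. In the Mu-inactive leaf the partner's 1.90% fell between 1.80% and 3.38% in the other plants.

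In the Mu-active pairs the distance was wider above single counts, though narrower again at 100 or more counts than at 10 to 99. For sites of 2 to 4 counts the other plants held 16.7% to 32.4% in leaf 74, 13.1% to 28.0% in leaf 75 and 0.826% to 19.8% in pollen, all below the partner without thinning. For sites of 10 to 99 counts they held 16.9% to 28.7%, 18.6% to 30.9% and 39.0% to 61.0%. For sites of 100 or more counts it was 36.6% to 46.4%, 32.7% to 39.6% and 68.4% to 89.5%. In the Mu-inactive leaf every site of 10 or more counts was also present in both other Mu-inactive plants. The partner exceeded the mean of the other plants by 2.91 percentage points at single-count sites (2 of 4 pairs higher; exact sign-flip test, two-sided, p = 0.5), by 17.8 points at 2 to 4 counts (4 of 4, p = 0.12, exact), by 42.8 at 5 to 9 (3 of 4, p = 0.25, exact), by 49.3 at 10 to 99 and by 34.01 at 100 or more (3 of 4, p = 0.25 in both, exact). After Benjamini-Hochberg adjustment over the 5 classes the exact p was 0.5 for single counts and 0.3125 otherwise. With 4 pairs the exact test cannot go below p = 0.12 (1 in 8), so none of these passes 0.05. At 10 to 99 and at 100 or more counts the Mu-inactive difference was 0, with partner and other plants all at 100%. A difference of 0 has no sign, so there the exact sign-flip test cannot go below p = 0.25.

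Private sites are those with no count in any undiluted library of another plant. In the Mu-active pairs they were met more often in the partner than in other plants. In comparisons with another plant, that plant was left out of the definition. The sites were still chosen as absent from all remaining plants, which by itself keeps the level in other plants low. Single-count private sites were found again at 10.1% of 40805 in leaf 74, 13.1% of 54217 in leaf 75 and 7.21% of 818 in pollen 79. The other plants held 0.763% to 2.52%, 0.729% to 2.62% and 0% to 1.92%. At 5 to 9 counts the partner held 95.4% of 739 sites, 94.0% of 1227 and 4 of 5, and the other plants held at most 3.08% and 2.58% in the leaf pairs and 0% in pollen. In Mu-inactive leaf 3, 1 of 575 single-count private sites came back (0.174%, interval 0.0044 to 0.965), against 0.347% and 1.37% in the other plants, and no private site had 10 or more counts. For private single-count sites the mean excess was 6.35 points (3 of 4 pairs higher; exact sign-flip test, two-sided, p = 0.25; adjusted exact p = 0.3125).

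**Figure D2:**
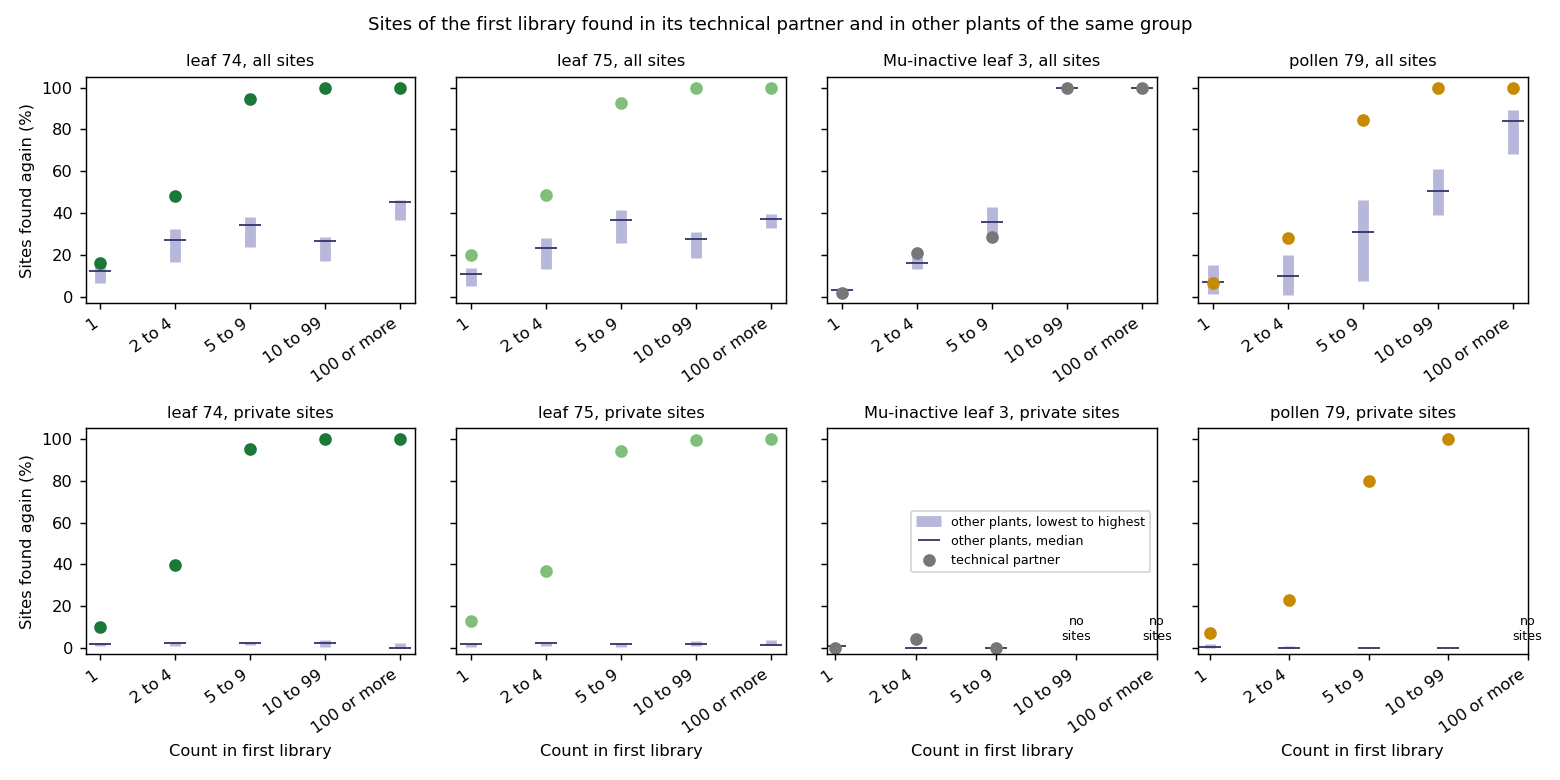
Percentage of the first library's sites found in the technical partner (points) and in first libraries of other plants (bars from lowest to highest, with the median as a dash), by count class; upper panels show all sites and lower panels private sites. At private sites of 5 to 9 counts the partner points stand at 95.4% and 94.0% in the leaf pairs, against at most 3.08% in other plants.

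How often a single-count site recurred among plants went with how often it was found again in leaf. In leaf 74 the share rose from 10.1% for sites read in no other plant to 12.5% for 1 other plant, 17.4% for 2 to 4 and 35.99% for 5 or more. In leaf 75 the shares were 13.1%, 17.2%, 23.4% and 43.9%. For sites held by 5 or more plants the other plants' libraries held a median of 47.5% and 44.5%, above the partner. They ranged from 26.1% to 57.7% and from 23.3% to 54.5%. Depth was not matched here: their reference levels were 8618 to 23714, against 8622 and 20041 in the partners. Pollen showed no such rise, with 7.21% for none and 5.69% for 5 or more. In Mu-inactive leaf 3 it was 1 of 575, 0 of 21, 2 of 14 and 9 of 22 sites in the same 4 classes. The other Mu-inactive plants held 42.9% and 61.9% in the last class.

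Although few private sites of low count came back, the amount of private signal was similar in both libraries of each Mu-active pair. The private load, the summed count at private sites over the reference level, was 9.33 and 9.49 in leaf 74, 6.71 and 6.92 in leaf 75, 11.6 and 11.6 in pollen 79, and 0.0128 and 0.0181 in Mu-inactive leaf 3. Only 16.3%, 19.7%, 9.45% and 0.333% of the first library's private sites were common to both libraries in those pairs. These common sites held 48.2%, 56.2%, 15.5% and 0.779% of the first library's private counts.

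Single-count sites seen in 1 leaf library alone were distributed along the chromosomes alike in both libraries. Over 2127 bins of 1 Mb, their numbers in the first and second library had a Pearson r of 0.957 in leaf 74 (70472 and 68707 sites) and 0.965 in leaf 75. Bins share chromosome position and mappability, and the same measure against other plants' leaf libraries was 0.932 to 0.955 and 0.929 to 0.953. In pollen r was 0.354, below the 0.494 to 0.629 against the deeper libraries of other plants, and in Mu-inactive leaf it was 0.119. Chromosome 1 held 16.7% and 16.2% of the one-library sites in leaf 74 and chromosome 10 held 6.41% and 6.37%.

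If counts were independent molecules divided at random, a site with 2 counts in the pair together would have 1 in each library about 50% of the time. In leaf 74, 39.3% of 24719 such sites were split and in leaf 75 37.4% of 39735, against 49.94% and 49.95% for a binomial split at these depths. In pollen 79 it was 38.2% of 325 sites. With rising pooled count the share approached its upper bound of 100%: at 3 counts 68.1% and 65.1% of leaf sites were in both libraries against 74.9%, at 5 counts 92.8% and 90.5% against 93.7%, and at 10 counts 99.7% and 99.3% against 99.8%. The gap has to close near that bound. At 10 pooled counts 5 of 667 leaf 75 sites and 1 of 374 leaf 74 sites were still read in 1 library alone. In Mu-inactive leaf 3, 9 of 59 sites with 2 pooled counts were split (15.3%, interval 7.22 to 27.0), 3 of 19 with 3 (15.8%) and 3 of 11 with 4 (27.3%).

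The deficit lay in sites whose counts came from the same border. Where 1 count was from the left border and 1 from the right, 49.6% of 9190 leaf 74 sites were split (48.6 to 50.7), 50.2% of 14952 leaf 75 sites (49.4 to 51.0) and 48.6% of 105 pollen sites (38.7 to 58.5). The binomial values were 49.94%, 49.95% and 48.70%. Where both counts were from the same border, 33.1% of 15529 (32.4 to 33.9), 29.7% of 24783 (29.2 to 30.3) and 33.2% of 220 (27.0 to 39.8) were split, and in Mu-inactive leaf 3 it was 15.5% of 58 (7.35 to 27.4). These intervals cover counting error only, as do all others given here, because amplified reads may stem from 1 molecule. Same-border sites were 62.8%, 62.4% and 67.7% of sites with 2 pooled counts in the Mu-active pairs and 98.3% in Mu-inactive leaf, which had 1 opposite-border site. Among private sites the split was 27.3% and 23.8% for the same border and 49.8% and 49.4% for opposite borders in leaves 74 and 75. How identical reads were handled before counting is not given in the sources used here, and its part in the difference was not tested.

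**Figure D3:**
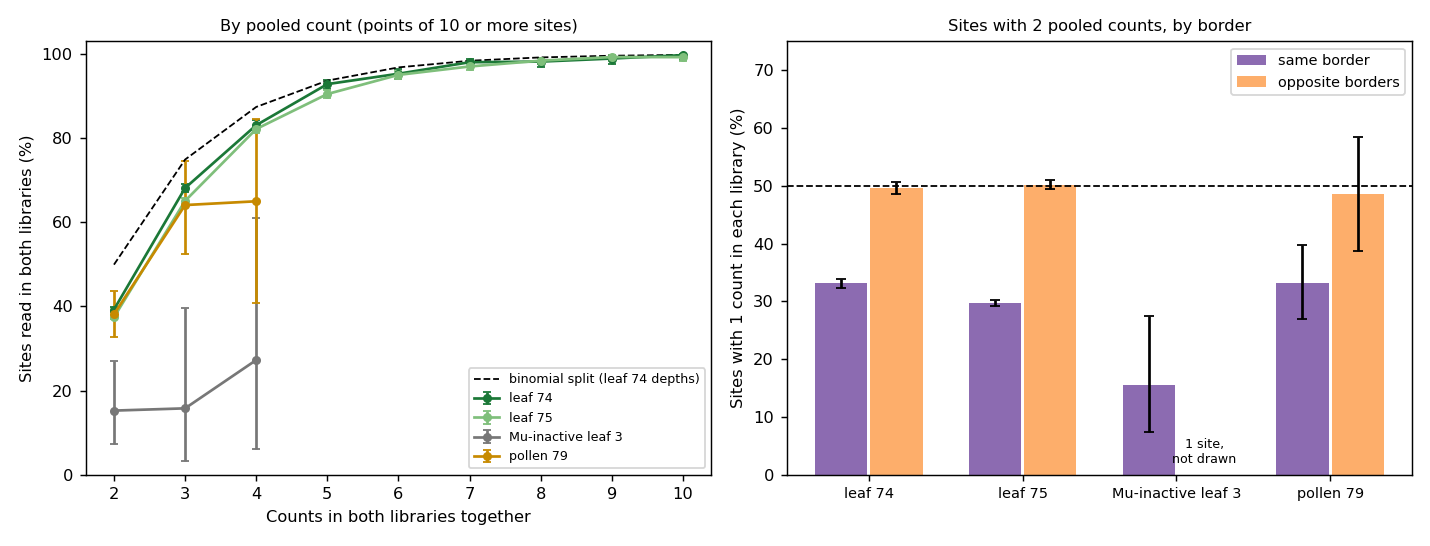
Left: percentage of sites read in both libraries against the counts of both libraries together, with 95% exact intervals and the binomial split as a dashed line. Right: percentage of sites with 2 pooled counts that had 1 in each library, by whether both counts came from the same or opposite borders; opposite-border bars stand near the dashed 50% line and same-border bars between 15.5% and 33.2%.

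Counts of well-read sites were close between libraries. Over sites with at least 20 pooled counts, the SD of the log2 scaled ratio was 0.48 in leaf 74 (1871 sites) and 0.51 in leaf 75 (2760 sites), beside 0.46 in both from counting alone. It was 0.41 in pollen 79 (92 sites, counting 0.30) and 0.79 in Mu-inactive leaf 3 (38 sites, counting 0.14). These SDs and the fold shares below include sites whose combined count is 2 times the larger border, where the counting value does not hold. At 100 or more counts in both Mu-inactive libraries the SD was 0.98 at 14 such sites and 0.14 at the other 19. In pollen 79, from 100 to under 200 pooled counts, it was 0.46 at 14 such sites and 0.24 at the other 47. At 100 or more counts in both pollen libraries it was 0.08 at 2 such sites and 0.14 at the other 6. Within 2-fold of each other were 95.2%, 93.9%, 97.8% and 89.5% of sites. A ratio past 4-fold was found at 1 site in leaf 74 (0.0534%), 4 in leaf 75 (0.145%), 1 in pollen 79 (1.09%) and 2 in Mu-inactive leaf 3 (5.26%). With 1 library on each side this is a description without a test. At the 114 private sites with at least 100 pooled counts in leaf 74, the scaled ratio lay between 0.608 and 1.48 with a median of 1.03, and at the 182 in leaf 75 between 0.605 and 1.72 with a median of 1.04.

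In leaf, the spread relative to counting was greatest at the most abundant sites. In leaf 74 the squared deviation over the binomial variance was 1.15 at 10 to 19 pooled counts, 1.40 from 100 to under 200, 2.30 from 500 to under 5000 and 13.4 at 5000 or more. Between 20 and 99 pooled counts it was 1.11 and 1.08. Leaf 75 gave 1.17, 1.42, 4.16 and 90.5 in the same 4 classes. Pollen 79, with 6 to 47 sites a class, gave 0.94, 1.21, 1.67, 1.02 and 0.80 in its 5 classes from 10 to 19 up to 200 or more, and Mu-inactive leaf 3 gave 294 at its 19 sites of 5000 or more. As a fold these are small. The SD at 5000 or more pooled counts was 0.09, 0.15 and 0.14 on the log2 scale, which is a factor of 1.07, 1.11 and 1.10. These values leave out 163 sites of the table at which the combined count is 2 times the larger border instead of the sum of borders. Such sites held 21.8% of the counts in the first leaf 74 library, 23.5% in leaf 75, 39.4% in Mu-inactive leaf 3 and 18.0% in pollen 79. At 5000 or more pooled counts their ratio to the binomial variance was 28.1, 152 and 808 in the 3 leaf pairs. Taking 2 times the larger border by itself raises this ratio. A common shift of the sites also enters it, and their median log2 ratio in leaf 75 was 0.17. Among sites of 100 or more counts in both Mu-inactive libraries the log2 ratio of such sites reached -3.39, against -0.23 to 0.26 at the other 19.

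**Figure D4:**
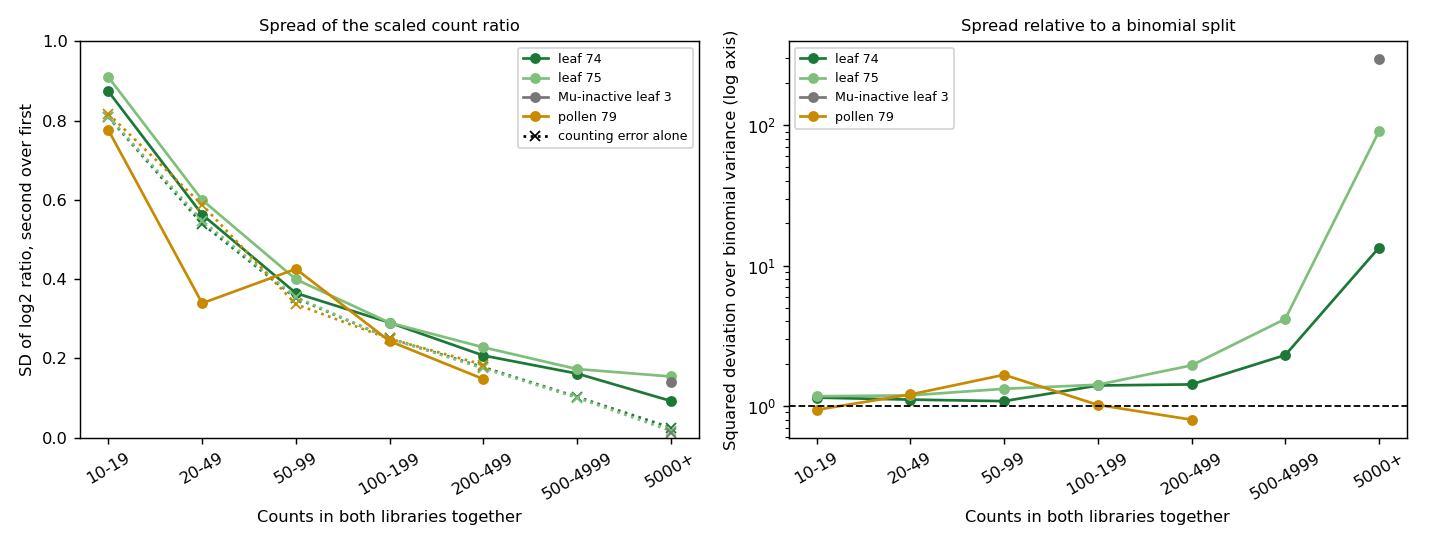
Left: SD of the log2 scaled ratio, second over first library, by pooled count (points and solid lines), with the SD from counting error alone (crosses, dotted). Right: squared deviation over the binomial variance on a log axis, with a dashed line at 1; it rises to 13.4 in leaf 74, 90.5 in leaf 75 and 294 in Mu-inactive leaf 3 at 5000 or more pooled counts. Groups of 5 or more sites whose combined count is the sum of borders are drawn.

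In Mu-active leaf, sites of 5 to 9 counts at 1 border were mostly read at that border again, more often than in other plants. Of single-count sites found again, 60.7% in leaf 74 (interval 59.9 to 61.5), 58.9% in leaf 75 (58.2 to 59.5) and 61.2% in pollen 79 (52.5 to 69.3) were read at the same border in the second library, with or without the other one, and in Mu-inactive leaf 3 it was 12 of 12. Counted over all single-count sites, the same border was read at 9.88% and the opposite border at 8.75% in leaf 74, and at 11.9% and 11.6% in leaf 75. Same minus opposite was thus 1.13 points in leaf 74, where other plants gave 0.57 to 1.09, and 0.31 in leaf 75, where they gave 0.46 to 1.08. For sites of 2 to 4 counts the same border was read at 30.5% and 29.6% in the leaves, at 13.9% in pollen 79 (other plants 1.27% to 13.9%) and at 16.7% in Mu-inactive leaf 3 (other plants 12.5% to 18.8%). For sites of 5 to 9 counts read at 1 border, the same border was read at 88.7% of 397 and 85.9% of 609 leaf sites, and the opposite border at 40.1% and 37.6%. Other plants read the same border at 18.1% to 28.5% and 16.7% to 29.6%.

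Some well-read sites showed a single border in both libraries. Among sites of 10 or more counts read at 1 border in the first library, the second library of leaf 74 read that border alone at 110 of 133, both borders at 23 and the other border alone at 0. In leaf 75 it was 200 alone, 22 both, 0 at the other border and 1 absent of 223. The 5 such sites of Mu-inactive leaf 3 and the 1 of pollen 79 kept their border. At 20 or more counts 38 of 45 and 91 of 100 leaf sites had the same border alone in the second library. In leaf 74, 65 of the 133 sites were private, and in leaf 75, 97 of the 223. Both borders were read at 92.8% of leaf 74 sites of 10 to 99 counts and at 98.8% of those of 100 or more.

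The balance of left and right counts at a site was partly kept. Over sites with at least 10 counts at each border in both libraries, the log2 left-over-right ratio of the first and second library had a Pearson r of 0.72 in leaf 74 (545 sites), 0.54 in leaf 75 (871), 0.88 in Mu-inactive leaf 3 (19) and 0.63 in pollen 79 (59). Its SD in the first library was 0.79, 0.65, 0.73 and 0.62, against 0.39, 0.40, 0.02 and 0.33 from counting. The points of a pair share the flanking DNA, the fragments and the primers. Against other plants the same measure ran from 0.54 to 0.91, 0.27 to 0.86, 0.75 to 0.76 and 0.14 to 0.79, over at most 46 common sites in the leaf comparisons.

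**Figure D5:**
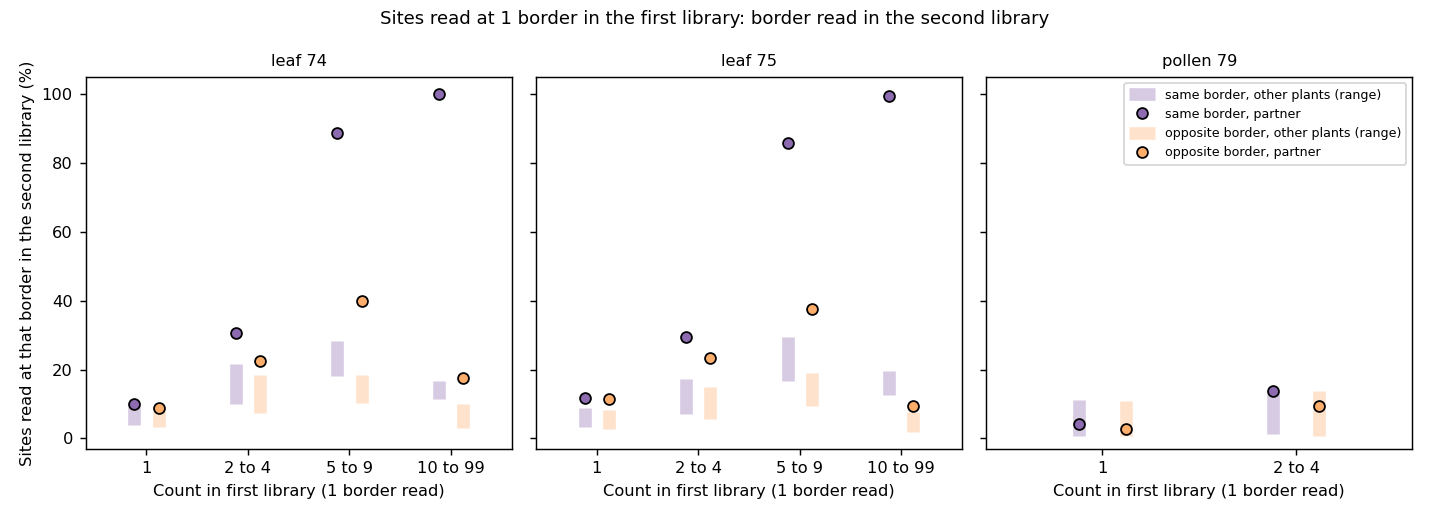
For sites read at 1 border in the first library, the percentage read at the same (purple) or opposite (orange) border in the technical partner (points) and in other plants (bars, lowest to highest), by count class with at least 10 sites. At 5 to 9 counts the same-border points are 88.7% and 85.9% in the leaf pairs and the opposite-border points 40.1% and 37.6%.

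Individual sites illustrate the range. They are given in the deposited coordinates, whose genome build is not given in the sources used here, and no gene context was assigned. The private site of highest pooled count in leaf 75, chr1:86590069-86590077, had 9637 and 9180 counts, a relative abundance of 0.452 and 0.458, and was also read in the endosperm, pollen and root of plant 75. The corresponding site of leaf 74, chr9:2589202-2589210, had 1024 and 937 counts (0.111 and 0.109) and was read in no other library, also not in other tissues of plant 74. Both sites were read at both borders in both libraries, with 522 left and 502 right counts in the first leaf 74 library.

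The private sites of at least 100 pooled counts with the largest ratio differed moderately (their ratios here are without the pseudocount used for the ranges above). At chr7:101469248-101469256 leaf 74 had 69 and 39 counts, a scaled ratio of first over second of 1.65. At chr4:199805872-199805880 leaf 75 had 40 and 65, a scaled ratio of second over first of 1.73, and both libraries read mostly the right border, with 5 left counts in each. In pollen 79 the private site of highest pooled count, chr10:142957255-142957263, had 18 and 14 combined counts and was one of the sites whose combined count is 2 times the larger border. Its left border alone was read, 9 and 7 times, and it was also present in the endosperm and leaf of plant 79.

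Among sites absent from a partner, the highest counts stood far above the single-count level in leaf. In leaf 75, chr1:226414437-226414445 had 14 counts, 7 from each border, in the first library and 0 in the second, and was read in 2 other plants. In the reverse direction chr6:164269726-164269734 had 0 and 14 counts, 4 from the left and 10 from the right, and was read in 3 other plants. In leaf 74, chr1:110012168-110012176 had 9 and 0 counts and was read in 16 other plants, and chr3:18843795-18843803 had 0 and 10 and was read in 7. All 4 were thus recurrent sites. The pollen 79 site chr5:84983537-84983545 had 9 counts, 3 left and 6 right, against 0, and chr6:378051-378059 had 0 and 3, and neither was read in another plant. The Mu-inactive site chr2:150737196-150737204 had 7 counts, all from the left border, against 0, and was read in no other library.

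Low-count sites were rarely met in other tissues of the plant, whether or not the technical partner had them. Of private leaf 74 sites with 2 pooled counts, the endosperm of plant 74 held 0.837% of 3105 sites split between libraries and 0.913% of 5807 sites read in 1 library, the root 0.129% and 0.138%, and the pollen 0.129% and 0.172%. In leaf 75 the shares were 0.654% of 5198 and 0.567% of 10763 in endosperm, 0.0770% and 0.0557% in root, and 0.212% (11 sites) and 0.0743% (8 sites) in pollen. The intervals overlapped in each leaf comparison, though narrowly in the pollen of plant 75 (0.106 to 0.378 and 0.0321 to 0.146). Overlap is not a test of the difference, and none was made. In pollen 79 the endosperm held 2 of 51 split and 0 of 88 unsplit sites, and the leaf 3 of 51 and 0 of 88. Private leaf sites of 10 or more counts in both libraries were also uncommon elsewhere, but less so than private sites of 1 pooled count. The endosperm held 8 of 576 (1.39%) against 0.702% in plant 74, and 22 of 794 (2.77%) against 0.404% in plant 75. In the root it was 1 site (0.174%) against 0.0514%, and 10 sites (1.26%) against 0.0594%. In pollen it was 3 sites (0.521%) against 0.0931%, and 4 sites (0.504%) against 0.0742%. In plant 74 the intervals of each such comparison overlapped.

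Single-count sites found again lay more often next to a very abundant site in leaf. Within 10 bp of a site with 100 or more counts were 1.17% of 13703 leaf 74 sites found again (interval 0.995 to 1.36) and 0.301% of 70501 not found again (0.262 to 0.344). In leaf 75 the shares were 0.586% (0.489 to 0.696) and 0.307% (0.271 to 0.346), and in pollen both were 0. When a site within 10 bp counted as a match, 31.3% of leaf 74 and 37.9% of leaf 75 single-count sites were found again. The other plants then held 19.1% to 36.3%, with 2 of 5 below the partner, and 17.9% to 35.3%, with 5 of 5 below.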

How the data were processed

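The deposited values were whole-number counts per insertion site and library, in a combined table, a left-border table and a right-border table of 56 columns, per the file headers. Bowtie2 is named without a version in the submitters' processing notes. The sources used here do not give the build, the caller, filters or the handling of duplicate reads. The combined table listed 2253850 sites, of which 99.9942% spanned 9 bp. The combined count was the sum of the borders except at 163 sites.

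The 4 pairs were compared with each other's sites at identical positions, at all sites and at private sites over 50 undiluted libraries of 20 plants. The 6 diluted libraries were not used. Counts were scaled by the reference level, the median over 28 sites with at least 10 counts in each undiluted library, 11 of which are among the 163. Ratios per site used a pseudocount of 0.5 and at least 20 pooled counts, but those given for the named sites had no pseudocount. Thinning was analytic. Intervals are exact (Clopper-Pearson) at 95% and the floor is 3 counts. Differences from other plants were tested over pairs with an exact two-sided sign-flip test. P-values measure the spread between 4 pairs of different plants and tissues. The leaf 74 and leaf 75 pairs share comparison libraries and each serves as a comparison for the other, so their differences are not independent.

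Sites were named by a rule: per pair, the site of highest count absent from the other library in each direction, the private site of highest pooled count, and the private site of at least 100 pooled counts with the largest ratio. For the Mu-inactive pair the second-only site is left out here, since its combined count is one of the 163. The pairs, classes and named-site rule were chosen with earlier results of these data known. The split by border, the label check, the adjacency within 10 bp of abundant sites the recurrence classes and the pollen comparisons without plant 99 or plants 42 and 52 were added after seeing the data. The binomial split and the spread of ratios were tested on simulated counts without borders or repeated reads of 1 molecule. The sign-flip test was checked on fixed values. Calculations used Python 3.11.15, numpy 2.4.6, pandas 2.3.3 and scipy 1.17.1, and plots matplotlib 3.10.9.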

Additional observations from a re-analysis of the deposited data

Results flagged for a closer look

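Values of the 4 pairs were examined in 19 sets for a value far from the other 3, and 7 sets had one. The rule's chance rate of about 1 in 20 holds for independent sets of like pairs. Here sets share sites, percentages are bounded at 100 and 1 pair is Mu-inactive, so the 7 cannot be set against that rate. In 6 of the 7 the value apart was that of the Mu-inactive leaf. The percentage found at the same border was 100 at single-count sites and 100 at 2 to 4 counts, 28.6% of sites of 5 to 9 counts and 0% of private sites of that class (1 site) were found again, and the scaled ratio of the class was 0.21. Its scaled ratio at 10 to 99 counts was also apart, at 0.48 over 6 sites. With the second library selecting, the values at 5 to 9 and 10 to 99 counts turned or vanished. Then 4 of 4 sites of 5 to 9 counts were found, and the scaled ratios were 0.85 and 3.45. The mean over pairs of the same-border percentage at single-count sites was 70.2% and, in that direction, 71.2%. Leaf 75 was apart at 10 to 99 counts, with 99.7022% found again (8 of 2686 sites missed) against 100% in the other 3 pairs. With 3 pairs at 100% any miss is set apart by construction, and 2 of those pairs had 6 and 77 sites.

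Some pairs moved opposite to the others when compared with other plants, and these differences between pairs were not tested. The partner minus the other plants at single-count sites was -1.42 percentage points in Mu-inactive leaf 3 and -1.14 in pollen 79, and above 0 in both Mu-active leaves. The pollen value was 2.53 with the second library selecting and 0.03 without plants 42 and 52, and at matched reference levels the partner held 6.64% against a mean of 0.580%. At private single-count sites it was -0.69 in Mu-inactive leaf 3, and at all sites of 5 to 9 counts -7.14, where pollen 79 and both Mu-active leaves were above 0. With the second Mu-inactive library selecting, that last value was 25 points (4 sites).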

How the results depend on the processing

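No paired analysis was possible because the replicate numbers are plant numbers and no 2 technical pairs share one. The sign-flip test already sets the partner against other plants within each pair. Over 15 results and 157 settings, 150 values moved by less than 1 SD or stayed on their side of the threshold. Some settings could not move a value, so the tally is no measure of robustness. A change of scale leaves the SD of a log ratio as it is, and the 163 sites never have a combined count of 1. Settings with the Mu-active pairs only repeat those without Mu-inactive leaf. Among the 150 values the difference in other tissues changed sign, as given below. The mean share of single-count sites found again was 11.3% and became 20.1% when a site within 10 bp counted. At 2 to 4 counts it was 36.5% and became 19.97% when at least 2 counts were required in the second library. At 10 to 99 counts it was 99.9% and became 99.8% under that requirement and 99.6% after thinning. The excess over other plants at single-count sites, 2.91 points, reversed to -0.95 with at least 2 counts required (exact sign-flip p = 0.625). Restricting the split of sites with 2 pooled counts to private sites, chosen after seeing the data, moved the mean over 3 Mu-active pairs from 32.0% to 27.6% for the same border and from 49.5% to 48.3% for opposite borders. Leaving out 1 pair at a time, the single-count share ran from 8.27% to 14.4% and the excess over other plants from 0.54 to 4.36 points, lowest in both without leaf 75. The mean SD of the log2 ratio, 0.55, was 0.47 without Mu-inactive leaf and 0.44 without the 163 sites. The excess of split over one-library sites in other tissues, 1.24 points, rests on 5 pollen matches and was -0.01 when the other tissue had to hold 2 or more counts. The cause of these shifts was not tested. Depth limits pollen 79, where 3 counts are 0.0314 of the first library's reference level.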
